A study of Homo sapiens with 32 samples.

Results

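Tight junctions seal the space between neighbouring epithelial cells just below the apical surface. Claudins form the paired strands of the seal and set which ions pass, occludin and tricellulin (MARVELD2) are MARVEL-domain proteins of strands and of the corners where several cells meet, and JAM-A (F11R) is an immunoglobulin-type adhesion molecule. Scaffolds of the cytoplasmic plaque, among them ZO-1 (TJP1), ZO-3 (TJP3) and cingulin (CGN), tie these membrane proteins to actin. Loss of such contacts is a known feature of epithelial-mesenchymal transition (EMT), which TGFβ1, a cytokine that signals through SMAD proteins, can induce in mammary epithelium.

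The genes described are the 9 tight junction components CLDN1, CLDN4, CLDN7, OCLN, TJP1, TJP3, F11R, MARVELD2 and CGN. They were chosen by name, and each was found as 1 row among the 17788 genes of the count table. Transcript abundance comes from sequencing the RNA of 32 libraries made from MCF10A, an immortalized, non-tumorigenic human mammary epithelial cell line. All libraries came from 4 cell clones, each grown from a single sorted cell: clones 2 and 27 carry wild-type JUNB (WT), and clones 1 and 65 carry JUNB edited with CRISPR/Cas9 (mut, called knock-out in the labels). JUNB is a subunit of the transcription factor AP-1. According to the study, the mut clones still make a small amount of a shortened JUNB polypeptide that TGFβ1 can induce, so they are not a full null model. Cells of each genotype received solvent (0.1% BSA in PBS) or TGFβ1 at 5 ng/mL for 6, 24 or 72 h. The labels give the solvent libraries the time 0 h, whereas the study describes solvent treatment lasting 72 h with all plates harvested together. Each change is read against this 1 solvent group. By the study's account its duration matches the 72 h treatment and not those of 6 and 24 h. Each of the 8 groups held 4 libraries, from 2 clones with 2 replications each. The 4 libraries of 1 clone and 1 replication are called a series and written as clone and replication, such as 27-2. With only 2 clones per genotype, a difference between genotypes cannot be told apart from a difference between clones.

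Library totals lay between 39702412 and 54651906 counts, and 3 counts corresponded to 0.0549 to 0.0756 CPM, the count divided by the library total and multiplied by 1000000. JUNB itself had 97.6 ± 12.9 CPM in WT solvent and 112 ± 47.9 CPM in mut solvent (SD, n = 4), and the genotypes did not pass the limma-voom test in solvent (adjusted p = 0.885) or at 72 h (adjusted p = 0.37), so the transcript level did not distinguish the edited clones. The basal mammary keratins KRT5, KRT14 and KRT17 were abundant in every library (KRT5 3262 to 8158 CPM), and the blood cell markers PTPRC and CD3E did not exceed 0.0498 CPM. The libraries of WT series 27-2 stood apart on the third principal component, at -53.6 to -35.1 against -14.6 to 33.6 for all others. The solvent library of mut series 1-2 lay at -37.9 on the first component, against -58.4 to -55.1 for the other mut solvent libraries. Values scaled by library size were the main measure. TMM scaling, which also corrects for composition, shifted the median change over all genes, in log2, from -0.191 to -0.0286 in WT at 72 h and from -0.176 to 0.00138 in WT at 24 h. The share of called genes that were higher moved with it, from 26.5% to 48.0% in WT at 72 h, from 27.1% to 50.3% in WT at 24 h and from 32.4% to 52.0% in mut at 72 h. It moved from 30.2% to 53.1% in WT and from 29.4% to 57.6% in mut at 6 h, and from 28.4% to 53.5% in mut at 24 h. For mut against WT it moved from 66.9% to 48.3% at 24 h and from 66.3% to 51.1% at 72 h, and for the interaction from 80.0% to 51.4% and from 76.3% to 52.2%.

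By GENCODE 44 annotation (GRCh38), the members lie on 7 chromosomes. The claudins are CLDN1 at chr3:190305707-190322446 (minus strand), CLDN4 at chr7:73799542-73832690 (plus) and CLDN7 at chr17:7259903-7263983 (minus). MARVELD2 at chr5:69415065-69444330 and OCLN at chr5:69492292-69558104 are near each other on the plus strand. F11R is at chr1:160995211-161021343 (minus) and CGN at chr1:151510510-151538692 (plus), TJP1 at chr15:29699367-29968915 (minus) and TJP3 at chr19:3708362-3750813 (plus). Each count is a total per gene and is not split by transcript.

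To show the start-site sequence of a member that fell in both genotypes and of one that did not, the 250 bases before the start site were read for the 8 members that have a RefSeq promoter entry (GRCh38.p14). F11R had none. They were searched on both strands for CAGGTG, the E-box type bound by SNAIL and ZEB repressors, for TGANTCA, the AP-1 type, and for AACNNGTT, the Grainyhead-like type, and no matches overlapped each other. CLDN7, which fell in both genotypes, held 4 CAGGTG matches, with first bases 174, 135, 20 and 9 bases before the start. At least 1 such match was found in 17.5% of 35116 promoter windows of this length, and at least 4 in 0.122%. OCLN, which also fell in both genotypes at 72 h, held 1 CAGGTG match. CLDN4, whose libraries moved in opposite directions in the 2 genotypes, held 2 TGANTCA matches, 242 and 161 bases before the start, and at least 2 were found in 0.402% of windows (at least 1 in 6.57%). CGN held 1 AACNNGTT match, found in 3% of windows, and the windows of CLDN1, MARVELD2, TJP1 and TJP3 held no match. TJP3 fell most of all members at 72 h, by -2.97 log2 in WT and -2.82 in mut. CLDN1 was called lower at 72 h in mut, MARVELD2 was called lower in WT and TJP1 higher in WT. A match describes the letters only, binding was not measured here, and any part of a match in these changes was not tested. The 3 windows are given 5′ to 3′ on the strand of the gene with matches in capitals, for CLDN7 at chr17:7262479-7262728 (minus strand), for OCLN at chr5:69492540-69492789 (plus strand) and for CLDN4 at chr7:73830746-73830995 (plus strand).
CLDN7: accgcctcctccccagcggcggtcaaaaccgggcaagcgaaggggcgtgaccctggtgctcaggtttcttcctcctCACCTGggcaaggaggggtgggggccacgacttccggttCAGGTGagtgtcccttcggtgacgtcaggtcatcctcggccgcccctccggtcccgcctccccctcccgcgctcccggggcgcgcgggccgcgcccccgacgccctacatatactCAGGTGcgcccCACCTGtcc
OCLN: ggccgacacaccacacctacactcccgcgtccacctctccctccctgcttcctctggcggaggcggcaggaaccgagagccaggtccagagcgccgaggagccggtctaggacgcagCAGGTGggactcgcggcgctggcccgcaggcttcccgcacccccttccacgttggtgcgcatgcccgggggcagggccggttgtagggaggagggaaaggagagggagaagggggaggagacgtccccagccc
CLDN4: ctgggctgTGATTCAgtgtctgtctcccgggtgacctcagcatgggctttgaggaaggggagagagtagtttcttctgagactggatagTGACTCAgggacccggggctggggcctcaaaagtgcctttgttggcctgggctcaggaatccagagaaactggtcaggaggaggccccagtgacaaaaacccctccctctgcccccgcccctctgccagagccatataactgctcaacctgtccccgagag

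Levels between genes were compared per length, as CPM per kilobase of merged exon. In WT solvent F11R was highest at 64.2 ± 4.78 CPM per kilobase (SD, n = 4), followed by CLDN7 at 50.5 ± 17.5, CLDN1 at 34.3 ± 10.1 and TJP1 at 14.7 ± 0.799. MARVELD2 (4.19 ± 0.637), TJP3 (2.01 ± 0.958), CLDN4 (1.76 ± 1.2), OCLN (1.74 ± 0.606) and CGN (0.712 ± 0.406) were low. The neighbours TJP3, CLDN4 and OCLN differed by less than either SD. F11R and CLDN7, and CLDN7 and CLDN1, differed by less than the SD of CLDN7 only. In mut solvent CLDN7 led at 87.6 ± 7.31 and CLDN1 followed at 79.1 ± 12.2, both above F11R at 67.0 ± 1.09. With the length of the longest coding transcript instead, OCLN in WT solvent was 3.04, above CLDN4 at 1.99 and TJP3 at 2.60, so the order among these low genes depends on the length used.

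**Figure D1:**
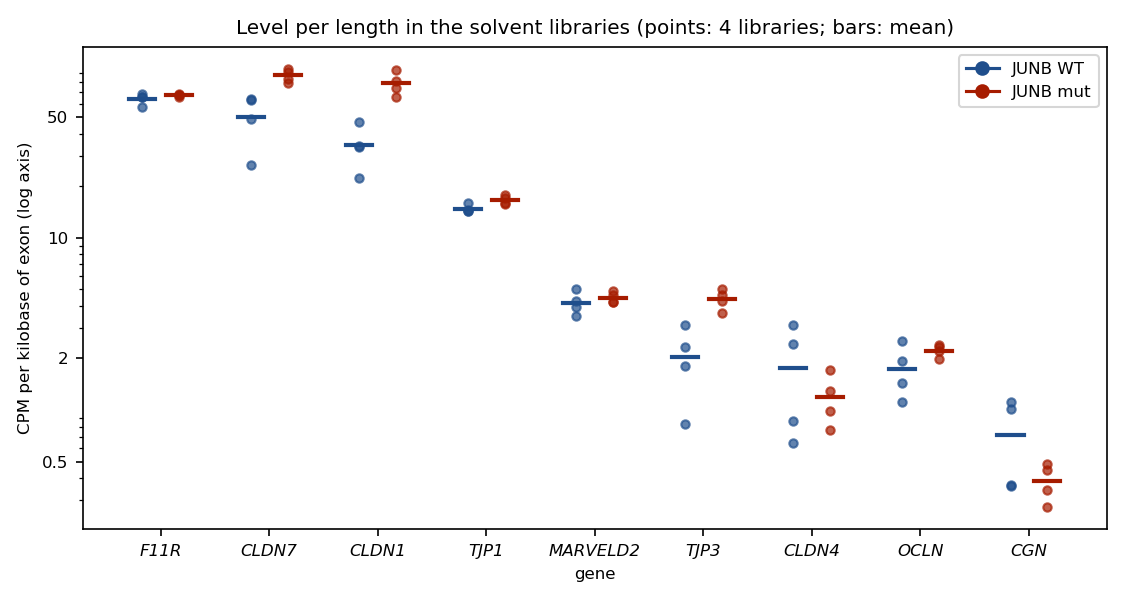
CPM per kilobase of merged exon (log axis) of the 9 genes in the solvent libraries, with JUNB WT in blue and JUNB mut in red. Points are the 4 libraries of a group and bars their mean; F11R, CLDN7 and CLDN1 sit highest, and CLDN4 and CGN lowest in mut at 1.18 and 0.386.

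Abundance under TGFβ1 was compared first within the WT clones. At 72 h, CLDN7, OCLN, MARVELD2 and TJP3 were lower and TJP1 was higher than in solvent. Thus 4 of 9 members were lower, where 38.4% of all 14865 tested genes were called lower, and 1 was higher, where 13.9% of genes were, so both counts were near the background. Their median log2 fold change was -0.513, against -0.191 over all genes. At 24 h, 2 members were higher (CLDN4 and TJP1, background 14.1%) and 2 lower (CLDN7 and TJP3, background 38.0%). At 6 h TJP3 was the 1 member called lower (background 11.9%) and none was higher (background 5.13%). TMM scaling called 1 lower and 1 higher there (background 6.18% and 7.01%). edgeR and DESeq2 called none lower (background 5.95% and 6.3%) and each called 1 higher (background 7.25% and 8.23%). When each series was compared with its own solvent library (series as a replicate block), 3, 7 and 8 members were called at 6, 24 and 72 h, where 25.9%, 59.6% and 60.0% of all genes were.

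In the mut clones, 4 members fell at 72 h (CLDN1, CLDN7, OCLN and TJP3, background 16.3%) and none rose (background 7.81%), with a median of -0.919 against -0.0869 over all genes. At 24 h CLDN7 and TJP3 fell (background 17.1%) and none rose (background 6.75%). No member was called at 6 h, where 2.06% of genes were higher and 4.94% lower by limma-voom. TJP3 was the 1 member with an unadjusted p under 0.05 there, and the share of all genes at that threshold was not counted. With the series block, 2, 5 and 7 members were called, where 16.5%, 35.0% and 33.9% of genes were. Summed over CDH1, EPCAM, KRT8 and KRT18, general epithelial markers had 797 to 932 CPM in mut solvent and 570 to 629 CPM at 72 h, and in WT 524 to 790 and 425 to 668 CPM. Their part in the tight junction values was not tested, and bulk RNA cannot tell fewer cells with a transcript from less transcript per cell.

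**Figure D2:**
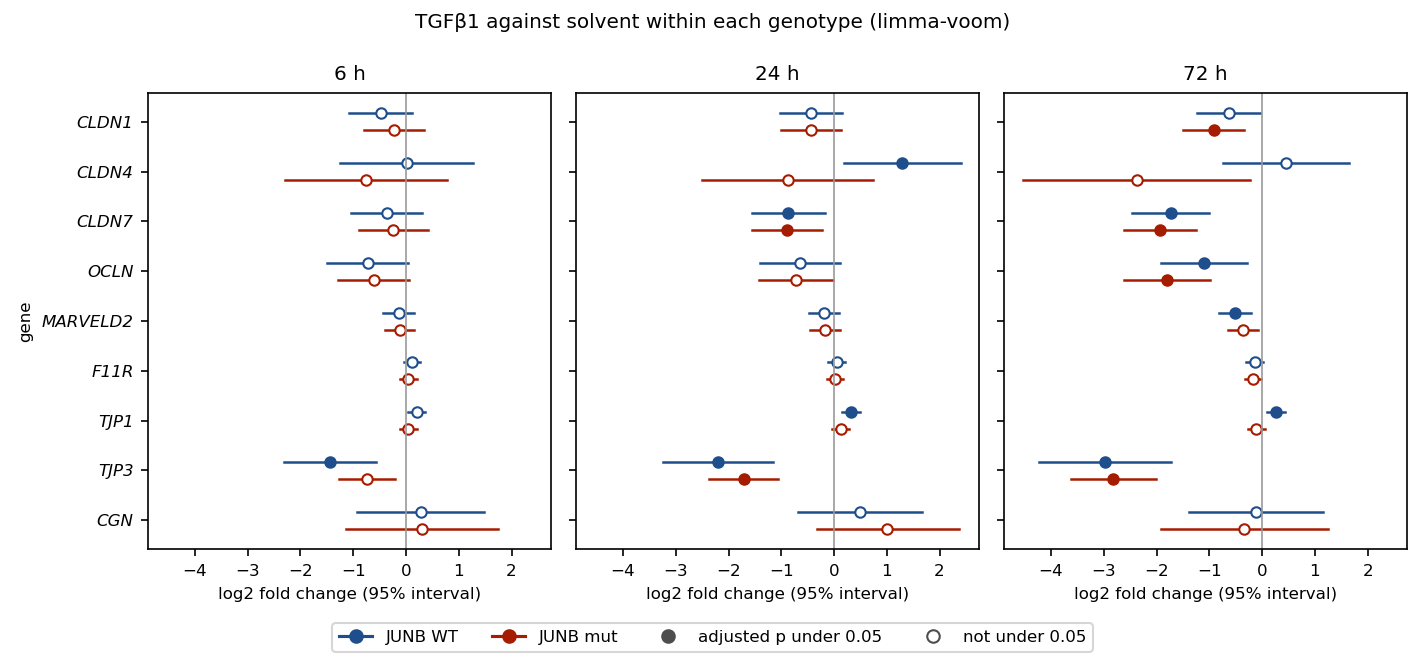
Log2 fold change of TGFβ1 against solvent for the 9 genes after 6, 24 and 72 h, in WT (blue) and mut (red), with 95% intervals from limma-voom and filled points where the adjusted p is under 0.05. TJP3 and CLDN7 lie left of 0 in both genotypes at 24 and 72 h, whereas CLDN4 at 72 h is at 0.45 in WT and -2.38 in mut.

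TJP3 encodes ZO-3, a scaffold found in epithelia, and had the largest decrease of the 9 members in both genotypes at 24 and 72 h. Its WT solvent libraries had 9.17, 7.13, 12.4 and 3.29 CPM (series 2-1, 2-2, 27-1 and 27-2, the order used for WT throughout), and the 72 h libraries 1.12, 0.64, 2.13 and 0.506 CPM. The groups did not overlap, and every series was lower than its own solvent library at each time. The share of all genes with such separate groups or such agreement of the series was not counted, for this or any other member. The 72 h mean was 13.8% of the solvent mean, and the log2 fold changes were -1.44 ± 0.42 at 6 h, -2.20 ± 0.51 at 24 h and -2.97 ± 0.61 at 72 h (SE, limma-voom adjusted p = 0.0182, 0.000572 and 0.00018). The 6 h call rested on single libraries: without WT solvent 27-1 the value was -1.16 (limma-voom adjusted p = 0.0753), and without WT 6 h 27-2 it was -0.97 (adjusted p = 0.1). Neither edgeR nor DESeq2 called TJP3 at 6 h. In mut, solvent libraries had 20.0, 14.4, 18.5 and 17 CPM (series 1-1, 1-2, 65-1 and 65-2, the order used for mut throughout) and 72 h libraries 2.99, 2.06, 2.68 and 2.21 CPM. All 4 fell to a similar level, and the log2 fold change was -2.82 ± 0.39 (limma-voom adjusted p = 4.65e-06), with -1.71 ± 0.32 at 24 h (adjusted p = 0.000299). At 6 h it was -0.74 ± 0.26 (limma-voom adjusted p = 0.08; 0.00235 with the series block).

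CLDN7, a claudin widely made in epithelia, had a lower mean at each later time in both genotypes. No single step between times was called by limma-voom without the series block. WT libraries had 156, 122, 160 and 65.7 CPM in solvent, 69.1, 52.3, 125 and 38.5 CPM at 24 h, then 53.1, 24.2, 67.8 and 19.3 CPM at 72 h. Series 27-1 stayed highest and 27-2 lowest, and the 72 h and solvent ranges touched only through these. The log2 fold change was -1.73 ± 0.36 at 72 h (SE, limma-voom adjusted p = 0.000201), while the 24 h value of -0.87 ± 0.34 (adjusted p = 0.0317) became -0.69 under TMM scaling (adjusted p = 0.0871). In mut, the values were 208, 198, 228 and 238 CPM in solvent, and 48.7, 48.3, 55.7 and 82.2 CPM at 72 h. These groups were far apart, at -1.93 ± 0.34 (limma-voom adjusted p = 8.8e-05), and the 24 h value was -0.89 ± 0.32 (adjusted p = 0.046), which TMM scaling also left uncalled at -0.80 (adjusted p = 0.0843).

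OCLN encodes occludin. WT libraries had 21.5, 16.1, 28.1 and 12.5 CPM in solvent, and 13.5, 5.07, 20.5 and 4.53 CPM at 72 h. The ranges overlapped, although all 4 series were lower than their own solvent library. The log2 fold change was -1.10 ± 0.40 (SE, limma-voom adjusted p = 0.0216), and TMM scaling gave -0.93 (adjusted p = 0.0521). Leaving out WT solvent 27-1, WT 72 h 2-2 or WT 72 h 27-2 gave -0.89, -0.84 and -0.75, each without a call. In mut, the values were 26.7, 24.6, 22.1 and 26.0 CPM in solvent, and 9.16, 7.24, 6.72 and 5.59 CPM at 72 h. The mut groups were separate, and the decrease was -1.80 ± 0.40 (limma-voom adjusted p = 0.00138). With the series block, OCLN was also called lower at 6 h in WT (-0.66, limma-voom adjusted p = 0.00699) and mut (-0.59, adjusted p = 0.0127).

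CLDN1, a strand-forming claudin also prominent in keratinocytes, had 124, 122, 171 and 81.0 CPM in WT solvent and 96.4, 56.4, 130 and 52.5 CPM at 72 h. In mut it had 296, 270, 238 and 343 CPM in solvent and 123, 169, 135 and 182 CPM at 72 h. The mut groups were separate and the WT groups overlapped. The log2 fold change at 72 h was -0.92 ± 0.28 in mut (SE, limma-voom adjusted p = 0.0171) and -0.63 ± 0.29 in WT (adjusted p = 0.0728; -0.61 and 0.00018 with the series block). The mut call was lost without mut solvent 65-2 (-0.83, limma-voom adjusted p = 0.0573) or mut 72 h 1-1 (-0.82, adjusted p = 0.0553).

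MARVELD2 and F11R spanned narrow ranges. MARVELD2 lay between 12.4 and 27.0 CPM in WT and between 16.8 and 26.3 CPM in mut. It was lower in WT at 72 h by -0.51 ± 0.15 log2 (SE, limma-voom adjusted p = 0.00455), and in mut the value was -0.36 ± 0.14 (adjusted p = 0.0573; 0.00102 with the series block). F11R lay between 269 and 406 CPM in all 32 libraries. Its 72 h values were -0.14 (95% interval -0.30 to 0.01) in WT and -0.17 (-0.33 to -0.02) in mut, neither of them called. The series block called both (limma-voom adjusted p = 0.0109 and 0.00588), sums per clone called WT (0.0458) and not mut (0.0612), the fit without series 27-2 called mut (0.0322), and leaving out WT solvent 27-2 called WT (0.0394). In WT the F11R value at 72 h changed sign to 0.02 under TMM scaling. At 24 h in WT F11R was 0.05 (limma-voom adjusted p = 0.63), and it was called higher under TMM scaling (0.22, adjusted p = 0.0108), by edgeR (0.23, adjusted p = 0.00933) and by DESeq2 (0.24, adjusted p = 0.00453).

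CLDN4, a claudin of many epithelia, had 11.4, 4.03, 14.6 and 3.01 CPM in WT solvent, 19.3, 9.19, 36.3 and 11.7 CPM at 24 h, then 17, 4.11, 27.9 and 4.49 CPM at 72 h. In mut it had 7.96, 3.57, 6.08 and 4.65 CPM in solvent, 5.61, 3.43, 1.40 and 2.46 CPM at 24 h, then 2.67, 0.367, 1.12 and 1.01 CPM at 72 h. All 4 WT series were above their own solvent library at 24 and 72 h, and all 4 mut series were below theirs. The smallest changes were 0.03 log2 in WT 2-2 at 72 h and -0.06 in mut 1-2 at 24 h. No WT and mut libraries overlapped at these times. How many of all genes show either pattern was not counted. In WT the log2 fold change was 1.29 ± 0.54 at 24 h (SE, limma-voom adjusted p = 0.0475) and 0.45 ± 0.59 at 72 h (adjusted p = 0.54; 0.63 and 0.0225 with the series block, 0.59 and 0.143 on sums per clone). The 24 h call was lost without series 27-2 (1.10, limma-voom adjusted p = 0.0893) and without any of WT solvent 2-2 or 27-2 or WT 24 h 2-1 or 27-1 (0.87 to 1.24), and without WT 72 h 27-1 the 72 h value was -0.06. In mut the 72 h value was -2.38 ± 1.05 (limma-voom adjusted p = 0.101; -2.21 and 0.000329 with the series block), and edgeR and DESeq2 gave -2.03 with adjusted p = 0.0222 and 0.00709.

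The difference between the genotypes' responses was tested as an interaction (mut change minus WT change). For CLDN4 it was -2.17 ± 0.96 at 24 h (SE, limma-voom adjusted p = 0.159) and -2.84 ± 1.21 at 72 h (adjusted p = 0.123). With the series block it was -2.03 (limma-voom adjusted p = 0.000793) and -2.84 (adjusted p = 0.000252). At 72 h edgeR's quasi-likelihood test gave -2.87 (adjusted p = 0.0322) and DESeq2 gave -2.9 (adjusted p = 0.0126). With the replications of a clone summed, limma-voom gave -2.05 at 24 h (adjusted p = 0.0658) and -2.71 at 72 h (adjusted p = 0.0347). Thus at 24 h the CLDN4 interaction passed with the series block and did not on sums per clone, in edgeR or in DESeq2. At 72 h it passed in all 4 of these and did not in limma-voom over single libraries without the block.

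TJP1, encoding ZO-1, had 162, 163, 180 and 161 CPM in WT solvent and 198, 190, 219 and 195 CPM at 72 h. The WT groups were separate, and all 4 series were 0.22 to 0.29 log2 above their own solvent library. In mut it had 179, 193, 177 and 200 CPM in solvent and 175, 200, 176 and 146 CPM at 72 h. Here the groups overlapped, and library 65-2 was lowest. In WT the log2 fold change was 0.32 ± 0.08 at 24 h (SE, limma-voom adjusted p = 0.0013) and 0.27 ± 0.08 at 72 h (adjusted p = 0.00636). In mut all 4 series were also above their solvent library at 24 h, at 0.13 (95% interval -0.03 to 0.29), and at 72 h the value was -0.11 (-0.27 to 0.05). The interaction at 72 h was -0.38 ± 0.11 (limma-voom adjusted p = 0.0275; -0.47 and 0.00853 under TMM scaling). With the replications of a clone summed it was -0.37 and lost the call (limma-voom adjusted p = 0.0915). With 1 library left out it ranged from -0.45 to -0.30 and was called in 10 of 16 fits, with an adjusted p of at most 0.0644 in limma-voom. The calls were lost without WT solvent 2-1 or 2-2, WT 72 h 27-1, mut solvent 1-2 or 65-2, or mut 72 h 65-2.

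TJP1 was the 1 of 9 members called in the interaction at 72 h, where 2.92% of genes were called lower and 9.40% higher. With the series block TJP1, CLDN4 and OCLN (-0.90, limma-voom adjusted p = 0.016) were called, where 23.5% of genes were. On sums per clone CLDN4 was the 1 member called, and OCLN (-0.89, limma-voom adjusted p = 0.116) and TJP1 were not. At 24 h no member was called (background 9.65%), and none had an unadjusted p under 0.05 apart from CLDN4, which the series block called (background 18.7%). At 6 h no member was called (background 0.0740%), and none had an unadjusted p under 0.05. For TJP3, the interaction at 72 h was 0.15 (95% interval -1.34 to 1.64) and for CLDN7 -0.20 (-1.20 to 0.81), intervals wide enough to hold a difference of more than 1 log2.

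CGN encodes cingulin, which links ZO proteins to actomyosin and RhoA control. It had 6.71, 2.42, 7.34 and 2.38 CPM in WT solvent and 7.06, 4.64, 17.1 and 1.96 CPM at 24 h. In mut it had 3.22, 1.80, 2.95 and 2.25 CPM in solvent, 8.89, 4.73, 3.66 and 4.05 CPM at 24 h, then 3.76, 1.84, 1.42 and 1.39 CPM at 72 h. The 24 h libraries of the mut clones were all above their solvent libraries, whereas the WT libraries were scattered. The log2 fold change at 24 h was 1.01 ± 0.66 in mut (SE, limma-voom adjusted p = 0.278; 1.07 and 0.00405 with the series block) and 0.49 ± 0.58 in WT (adjusted p = 0.499; 0.70 and 0.0102 with the series block, 0.68 and 0.0965 on sums per clone).

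Between successive times no member was called by limma-voom: not from 6 to 24 h in WT (background 28.2%) or mut (3.12%), nor from 24 to 72 h in WT (7.83%) or mut (1.31%). At an unadjusted p under 0.05 limma-voom counted 1 and 1 from 6 to 24 h and 3 and 5 from 24 to 72 h in WT and mut. The share of all genes at this unadjusted threshold was not counted, so the shares above are no background for these counts. After adjustment, edgeR and DESeq2 each called 1 from 6 to 24 h in WT (background 25.2% and 26.8%) and 0 in the others. With the series block, 3 members were called from 6 to 24 h and 4 from 24 to 72 h in WT (background 37.7% and 17.4%). In mut the block called 2 and 7 (background 11.6% and 9.45%). The 7 in mut from 24 to 72 h were all lower and left out CLDN4 and MARVELD2.

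**Figure D3:**
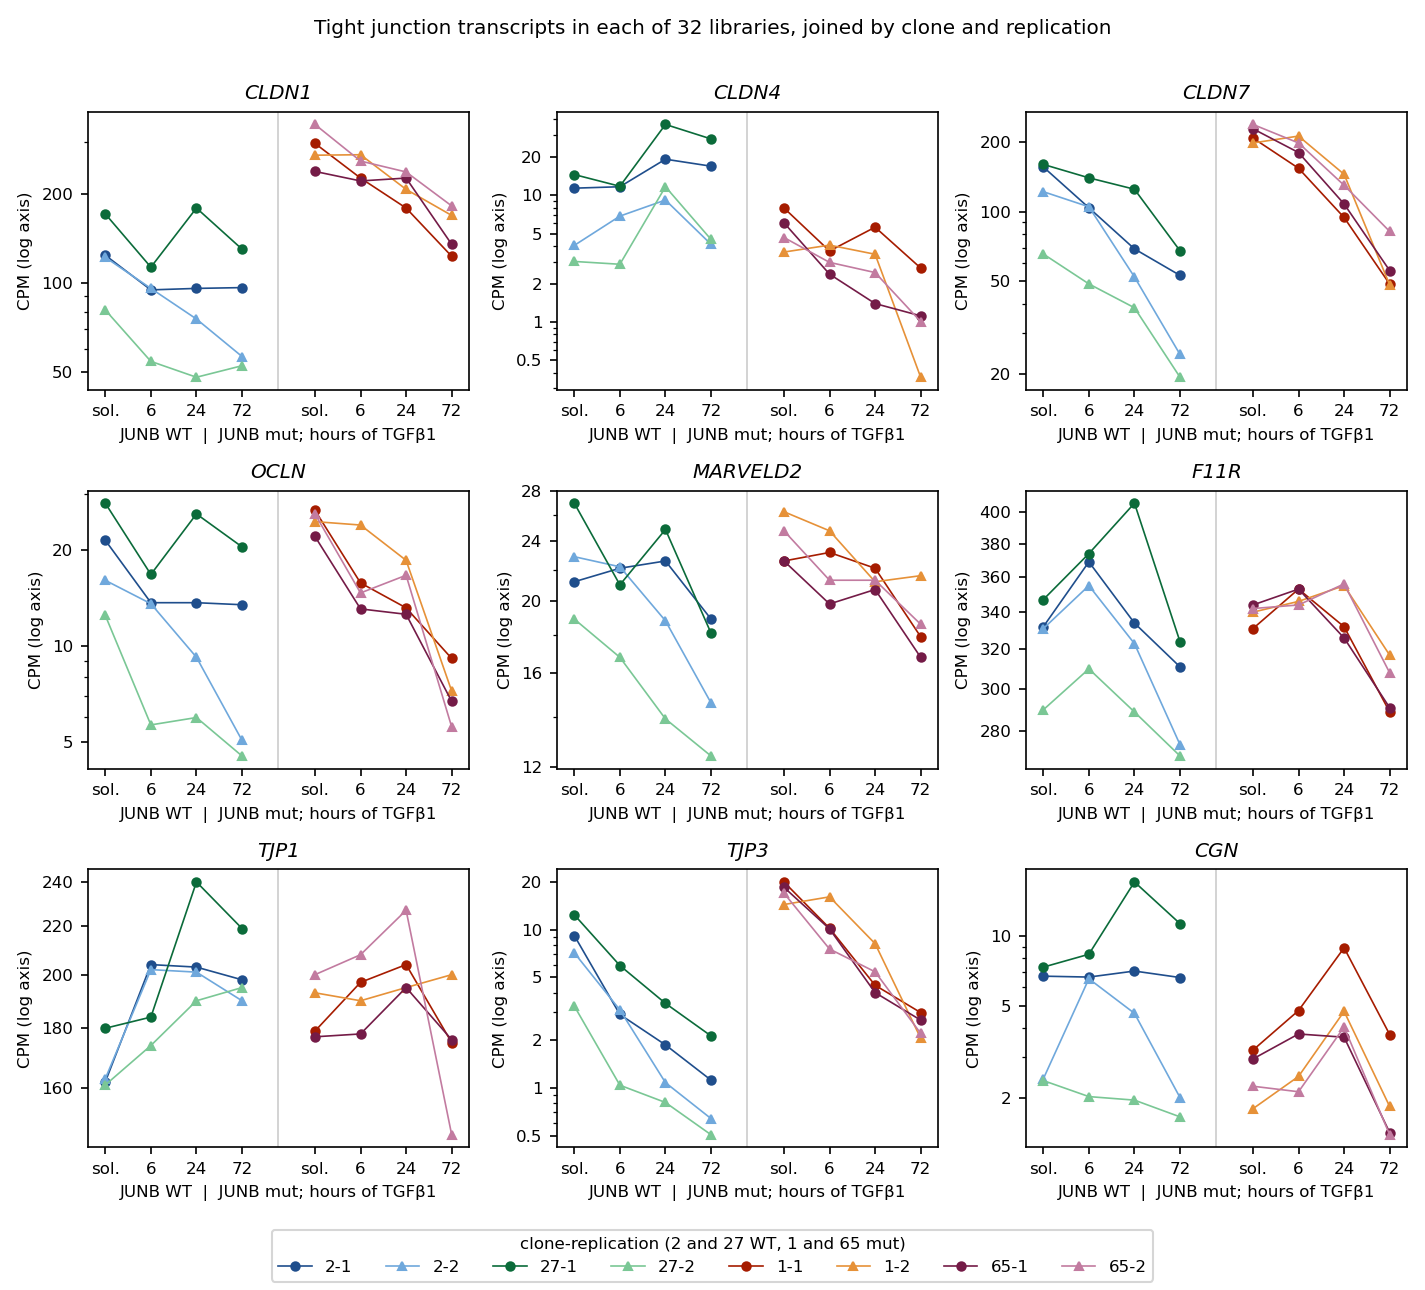
CPM (log axis, scale differs by panel) of the 9 genes in each of the 32 libraries, WT on the left and mut on the right of each panel, by treatment state, with lines joining the libraries of a series. CLDN4 is higher at 24 h than in solvent along every WT line and lower along every mut line (-0.06 log2 for series 1-2). The WT lines of OCLN and TJP3 are spread far wider than their mut lines. CLDN4 and CGN also spread in mut, where their series means ranged over 0.88 and 0.91 log2, against 2.02 and 2.13 in WT.

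The genotypes were then compared within each treatment state. In solvent, CLDN1 and TJP3 were higher in mut (2 of 9, background 6.38%) and no member was lower (background 6.32%). CLDN1 was 1.24 ± 0.28 log2 higher (SE, limma-voom adjusted p = 0.00351), and its mut libraries (238 to 343 CPM) did not overlap the WT libraries (81.0 to 171 CPM). TJP3 was also 1.24 higher (± 0.29, limma-voom adjusted p = 0.00466; 1.14 with adjusted p = 0.074 by edgeR), with 14.4 to 20.0 against 3.29 to 12.4 CPM. CLDN7 ranges did not overlap either (198 to 238 against 65.7 to 160 CPM), at 0.87 ± 0.32 (limma-voom adjusted p = 0.0763). The sum of 6 basal mammary markers was also higher in mut solvent, 12121 to 14649 against 8586 to 11198 CPM, and its part in these differences was not tested.

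At 6 h, CLDN1, CLDN7 and TJP3 were higher in mut (background 11.3%) and none was lower (background 10.0%). The differences were 1.49 ± 0.29 log2 for CLDN1, 1.94 ± 0.40 for TJP3 and 1.00 ± 0.33 for CLDN7 (SE, limma-voom adjusted p = 0.000354, 0.000781 and 0.0284). None of the 3 had overlapping libraries, and the share of all genes without overlap was not counted. The CLDN7 call at 6 h was lost in 4 of 8 fits with 1 library left out, without WT 6 h 27-2 or mut 6 h 1-2, 65-1 or 65-2. At 24 h the same 3 were higher (background 24.7%) and CLDN4 was lower (background 12.2%), by -2.56 ± 0.70 log2 (SE, limma-voom adjusted p = 0.00535). At 72 h CLDN1 was higher (0.95 ± 0.29, limma-voom adjusted p = 0.0103, background 26.0%), and CLDN4 and TJP1 were lower (background 13.2%), CLDN4 by -3.22 ± 1.02 (adjusted p = 0.0124) and TJP1 by -0.21 ± 0.08 (adjusted p = 0.0402). The TJP1 call held in 2 of 8 fits with 1 library left out, those without WT 72 h 2-2 or mut 72 h 1-2 (-0.28 to -0.13 over all 8). Without the series 1-2, CLDN4 at 72 h was -2.67 (limma-voom adjusted p = 0.055), and without 27-2 it was -3.62 (adjusted p = 0.00355). CLDN1 without WT 72 h 27-2 was 0.75 (limma-voom adjusted p = 0.0529). CLDN7 at 24 h was 0.85 ± 0.34 (limma-voom adjusted p = 0.0473), and without the series 27-2 it was 0.60 (adjusted p = 0.0694) and under TMM scaling 0.77 (adjusted p = 0.0741). TJP3 was 1.73 ± 0.52 higher at 24 h (limma-voom adjusted p = 0.0104) and 1.39 ± 0.66 at 72 h (adjusted p = 0.0988), where the ranges met.

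**Figure D4:**
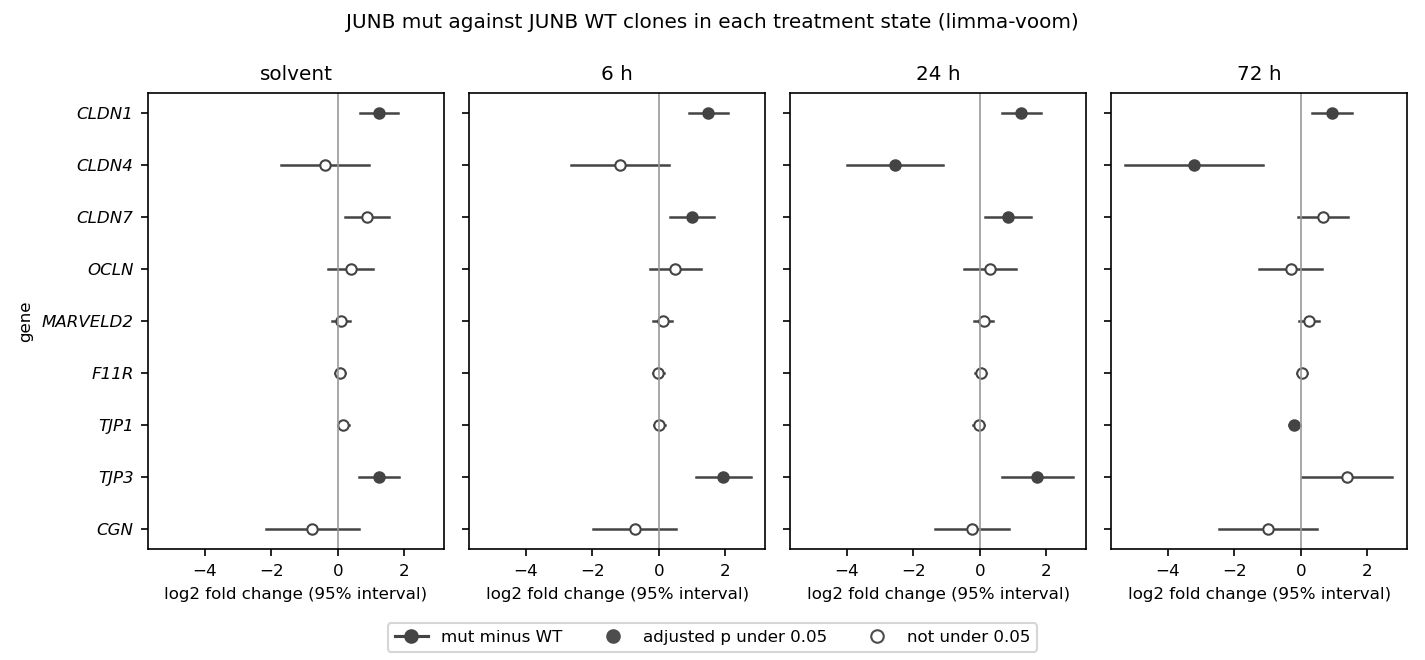
Log2 difference of mut minus WT for the 9 genes in solvent and after 6, 24 and 72 h of TGFβ1, with 95% intervals from limma-voom and filled points where the adjusted p is under 0.05. CLDN1 is right of 0 in all 4 states, and CLDN4 moves from -0.39 in solvent to -3.22 at 72 h.

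The 4 WT series lay far apart for most members. The mean log2(CPM + 0.5) of a series over its 4 treatment states spanned a median of 1.56 log2 across the 4 WT series for the 9 members, against 0.21 for all tested genes, and 6 members spanned at least 1 log2, as did 4.16% of all genes. The range was 2.13 log2 for CGN, 2.02 for CLDN4, 1.7 for TJP3, 1.68 for OCLN and 1.56 for CLDN7. It was 0.32 for F11R and 0.19 for TJP1. Series 27-1 was highest and 27-2 lowest for all 9 members, an order found in 11.4% of all genes, although both belong to 1 clone. Replication 1 was above replication 2 in both WT clones for 9 of 9 members (39.1% of genes) and in both mut clones for 1 of 9 (35.1% of genes). In mut the members' median range was 0.34 log2, against 0.19 for all genes. The adherens junction gene CDH1 ran with the WT order (range 1.19 log2, 27-1 highest and 27-2 lowest), and so did KRT5 (0.30). EPCAM, another epithelial adhesion gene, did not, with 2-2 lowest (-0.36) below 27-2 (-0.23) and a range of 0.81. What made the replications differ was not tested.

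Within the groups, members moved together in WT. The correlation of deviations from group means over the 16 WT libraries was 0.98 for OCLN with CGN and 0.94 for OCLN with CLDN4, while over the 16 mut libraries it was 0.06 and 0.38. CLDN4 with CGN gave 0.93 and 0.71. These are descriptions over libraries that share clones and series. Over all 32 libraries, with the same shared series and treatments, the genes outside the members most like each one by Pearson r of log2(CPM + 1), among 9627 genes, were as follows. For CLDN7 they were FXYD3 (r = 0.970) and RAB25 (r = 0.954), for OCLN DSG3 (0.919) and KLK10 (0.884), for MARVELD2 DSG3 (0.930) and CDH1 (0.888), and for F11R CDH1 (0.925) and TINCR (0.901). CLDN4 was closest to C1orf74 (0.891) and DSC2 (0.883), CGN to KRT6B (0.860) and DSC2 (0.850), and TJP1 to PAFAH1B1 (0.859) and OSMR (0.849). TJP3 was closest to CYP4B1 (0.969) and CLMN (0.968), and CLDN1 to MAP2 (0.946) and MFSD6 (0.945).

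The wider tight junction list held 50 further genes (claudins, angulins, adhesion molecules, plaque scaffolds and polarity proteins), of which 39 could be tested. In WT at 72 h, 8 were higher and 12 lower, where 13.9% and 38.4% of all genes were, with a median log2 fold change of -0.0561 (-0.191 over all genes). In mut 6 were higher and 9 lower, where 7.81% and 16.3% of all genes were (median -0.0885, and -0.0869 over all genes). Among genes with a mean of at least 5 CPM, the most increased in WT were ARHGEF18, a RhoA exchange factor (1.19 ± 0.09, SE, limma-voom adjusted p = 8.42e-11), AMOTL2, an angiomotin-like scaffold (0.46 ± 0.12), and CLDN12 (0.35 ± 0.08). The most decreased above that mean were MARVELD3 (-1.22 ± 0.32), PARD3B, a polarity protein (-0.99 ± 0.20), and CXADR, an adhesion molecule (-0.94 ± 0.25). Below it, PARD6A (-2.98), CLDN9 (-2.90), CLDN16 (-1.51) and PARD6B (-1.29) were called with larger decreases and CLDN14 (4.78) and CLDN11 (2.95) with larger increases, and these are named after their values were seen. Mean CPM in WT solvent and at 72 h was 1.97 and 0.283 for PARD6A and 4.61 and 1.89 for PARD6B. It was 0.361 and 0.13 for CLDN16, 0.207 and 0.0343 for CLDN9, 0.0335 and 0.867 for CLDN14, and 0.0363 and 0.234 for CLDN11. For CLDN9, CLDN14 and CLDN11 the lower mean is under 0.0549 CPM, the lowest level of 3 counts, so the size of their changes is uncertain. In mut, above the same mean, ARHGEF18 (0.82 ± 0.10), JAM3 (0.45 ± 0.15) and MPDZ (0.37 ± 0.11) led upward, and CXADR (-1.32 ± 0.23), PARD3B (-0.93 ± 0.17) and CRB3, an apical polarity protein (-0.91 ± 0.21), downward. In solvent 3 of the 39 were higher and 5 lower in mut (background 6.38% and 6.32%), with CLDN12 (-0.37 ± 0.08), ARHGEF18 (-0.36 ± 0.10) and MPDZ (-0.33 ± 0.11) lowest among those with at least 5 CPM. AMOTL2 was the 1 of 39 called in the interaction at 72 h, where 2.92% of genes were lower (-0.55 ± 0.17, limma-voom adjusted p = 0.0331), with 105 CPM in WT solvent and 143 CPM at 72 h, and 125 and 117 CPM in mut.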

How the data were processed

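The deposited table gives raw read counts, as whole numbers, for each gene in each library. The authors trimmed reads with Trimmomatic and used STAR for alignment to Ensembl GRCh38 and for counting. Versions, annotation release and strand setting are not given in the sources used here, and the kit named keeps no strand. Gene identifiers were matched to GENCODE 44. Reads shared with other transcripts could be misassigned: F11R shares 39% of the 75-base stretches of its main transcript with a readthrough gene, CLDN7 13.3% and OCLN 7.81% with other entries, and CLDN7 and TJP3 overlap ELP5 and APBA3 by 38 and 42 exon bases on the opposite strand.

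Groups came from the labels. The 17 comparisons were fitted with limma-voom 3.58.1 (R 4.3.3) following the study's methods, with library-size scaling and 1 coefficient per group over all 32 libraries, after edgeR 4.0.16 filterByExpr (minimum count 10, minimum total 15), which left 14865 genes. Tests were two-sided with Benjamini-Hochberg adjustment over these genes and a threshold of 0.05. Alternatives were TMM, edgeR's quasi-likelihood test, DESeq2 1.42.0, other filters, blocks, sums and left-out libraries. The fit was tested on simulated data.

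Libraries of a series were treated as paired only in the fits with the series block. The main fit had group coefficients alone and left this pairing out. The block was used because the libraries of a series came from the same clone and, per the study, were seeded together. Deviations from group means correlated at 0.346 on average over 48 pairs of libraries of the same series (over 0.1 in 46) and at 0.0183 for the other replication of that clone. No pair of replicates agreed within sampling noise (chi-square over degrees of freedom at least 11.7). This check can only find repeated sequencing of the same library and does not show that libraries are independent. Each library counted as a sample. Replications of a clone are not independent clones, so p-values measure the spread between these libraries. Library totals of 39702412 to 54651906 left member counts of at least 20 in every library.

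The members and lists were chosen with earlier results of these data known. Named were all members, of the other tight junction genes up to 3 in each direction with the largest called change and a mean of at least 5 CPM, and the 2 genes most like each member with a mean of at least 10 CPM. 0 columns were left unused.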

Additional observations from a re-analysis of the deposited data

Results flagged for a closer look

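A library set well apart within its group of 4 was looked for in 72 combinations of member and group on the log2 scale, and chance gives such a library in about 1 in 20. The 1 found was TJP1 in WT solvent 27-1, at 180 CPM, against 161 to 163 CPM in the other 3 libraries.

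The response of TJP1 at 72 h differed between the genotypes by -0.38 log2 (mut minus WT, limma-voom adjusted p = 0.0275), with 4 of 4 WT series above their own solvent library and 3 of 4 mut series below. The mut decreases were -0.03 log2 in 1-1, -0.01 in 65-1 and -0.45 in 65-2. CLDN4 moved up in 4 of 4 WT series and down in 4 of 4 mut series at both 24 and 72 h. The share of all genes with patterns like those of TJP1 and CLDN4 was not counted, and the 4 series of a genotype come from 2 clones. The smallest CLDN4 changes were close to none, at 0.03 log2 in WT series 2-2 at 72 h and -0.06 in mut series 1-2 at 24 h. Its interaction was -2.17 at 24 h (limma-voom adjusted p = 0.159) and -2.84 at 72 h (adjusted p = 0.123). At 24 h it passed with the series block and did not with edgeR, DESeq2 or sums per clone, and at 72 h it passed in all 4 of these.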

How the results depend on the processing

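The number of members called depended most on pairing. With the series as a replicate block it went from 1, 4 and 5 to 3, 7 and 8 in WT at 6, 24 and 72 h, from 0, 2 and 4 to 2, 5 and 7 in mut, from 0 to 3, 4, 2 and 7 between successive times, and in the interaction from 0 to 1 at 24 h and from 1 to 3 at 72 h. The share of all genes called rose as well, from 17%, 52.1% and 52.2% to 25.9%, 59.6% and 60% in WT. In mut it rose from 7%, 23.8% and 24.1% to 16.5%, 35% and 33.9%. Between successive times the shares went from 28.2%, 7.83%, 3.12% and 1.31% to 37.7%, 17.4%, 11.6% and 9.45%. For the interaction they went from 9.65% to 18.7% at 24 h and from 12.3% to 23.5% at 72 h. A block by replication number, shared by different clones and therefore not a pairing, added CLDN4 at 6 h (-1.47) and CGN at 72 h (-1.26) to the calls for mut against WT. With that block 23.3% and 41% of all genes were called, against 21.4% and 39.2% in the main fit. Summing the replications of a clone gave 3 members in WT at 6 h, 1 in mut at 6 h, 4 in mut at 24 h, 5 for mut against WT at 72 h and 1 each from 6 to 24 h in WT and from 24 to 72 h in both genotypes. Of all genes, 9.29%, 1.25%, 13.7%, 30.1%, 18.5%, 2.62% (WT) and 0.237% (mut) were called, in the order given. Fitting the compared groups alone gave 0 in WT at 6 h, 2 in WT at 24 h, 5 in mut at 24 h, 1 from 6 to 24 h in mut and 3 from 24 to 72 h in mut. Shares of all genes in these fits were 11.9%, 51.3%, 29.1%, 4.2% and 1.81%. Requiring a change of at least 1 log2 left 2 and 3 in WT at 24 and 72 h, 1 in mut at 24 h, 1 for mut against WT at 72 h and 0 in the interaction at 72 h. It left 9.72%, 10.1%, 3.22%, 6.96% and 1.54% of all genes. TMM gave 2 in WT at 6 h, 1 in mut at 24 h and 2 from 6 to 24 h in WT (13.2%, 17.3% and 25.1% of all genes). edgeR gave 1 in mut at 24 h, 1 from 6 to 24 h in WT, 1 for mut against WT in solvent and 2 in the interaction at 72 h, and DESeq2 gave 1, 1 and 2 in all of these but mut at 24 h. Over all genes edgeR called 16.5%, 25.2%, 12.5% and 9.11%, and DESeq2 26.8%, 14.4% and 11.1%. Without a low-count filter, or without the series 1-2, 1 member was called in mut at 24 h (19.1% and 19.6% of all genes). Without 1-2 or without 27-2, 1 was called in mut at 6 h (7.24% and 8.58% of all genes). Without 27-2, 1 was also called from 24 to 72 h in WT and in mut and from 6 to 24 h in mut (7.5%, 3.03% and 5%). The causes were not tested.

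The share of all genes called was not set beside the counts of the fits with 1 library left out. Those counts therefore show only how far the calls for members rest on single libraries. With 1 library left out, counts ranged from 0 to 1, 2 to 5 and 4 to 7 in WT at 6, 24 and 72 h, and from 0 to 1, 1 to 2 and 3 to 5 in mut. They ranged from 0 to 1 from 6 to 24 h and 0 to 2 from 24 to 72 h in WT, and were 0 for both in mut. For mut against WT they were 2 in solvent, 2 to 3 at 6 h, 3 to 4 at 24 h and 1 to 3 at 72 h (1 without WT 72 h 27-2), and in the interaction 0 at 6 and 24 h and 0 to 1 at 72 h. The TJP1 interaction was called in 10 of 16 such fits, TJP1 for mut against WT at 72 h in 2 of 8, and CLDN7 in mut at 24 h in 1 of 8. CLDN7 was called in 3 of 8 in WT at 24 h, and for mut against WT in 4 of 8 at 6 h and 2 of 8 at 24 h.

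Signs reversed for values that were not called. WT CGN at 72 h (-0.12) was 0.05 with TMM, 0.34 with edgeR, 0.36 with DESeq2, 0.17 with the series block, 0.10 summed, 0.08 without 27-2, and between -0.63 and 0.33 with 1 library left out. WT F11R at 72 h (-0.14) was 0.02 with TMM and edgeR and 0.03 with DESeq2. F11R for mut against WT at 72 h (0.03) was -0.05 with TMM and edgeR, -0.06 with DESeq2 and -0.01 without 27-2. The TJP3 interaction at 72 h (0.15) was -0.04 with edgeR and -0.05 with DESeq2. With 1 library left out, values that reversed ranged from -0.06 to 0.85 for CLDN4 in WT at 72 h, from -0.76 to 0.01 for CLDN4 in mut against WT in solvent, and from -0.66 to 0.10 for OCLN in mut against WT at 72 h. In the 72 h interaction they ranged from -0.51 to 0.11 for CLDN7, from -0.07 to 0.03 for F11R, from -0.67 to 0.29 for CGN and from -0.17 to 0.55 for TJP3. Of 1211 single-gene values under alternatives, 1039 kept both sign and side of the threshold.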
